A study of Mus musculus with 6 samples.

Results

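The long noncoding RNA genes Gas5, Snhg1, Snhg3, Snhg5, Snhg6, Snhg8, Snhg12, Epb41l4aos, Malat1 and Neat1 were read from the gene and transcript counts of activated mouse T cells. They are 10 of the 52550 genes in the files and were found by Ensembl identifier, with the version removed. Together they have 78 annotated transcripts there, of which 76 had at least 1 count. Splenic CD3+ T cells of wild-type (WT) mice were activated with antibodies to CD3 and CD28 for 24 h, either alone (TCR alone, 3 samples) or with a small molecule added (TCR+DMGV, 3 samples). The labels name the molecule DMGV, whereas the study's text names LNY1, which it describes as dimethylarginines purified from the medium of mouse fibroblasts, for the same experiment. The group keeps its label here, and which compound was added could not be settled. The study describes the samples of each group as independent biological samples.

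Snhg genes and Gas5 are small nucleolar RNA (snoRNA) host genes. Their exons are spliced into a long noncoding RNA that is often degraded by nonsense-mediated decay (NMD), and snoRNAs are cut out of their introns to guide the chemical modification of ribosomal and spliceosomal RNA. Several of these genes begin, like the genes of ribosomal proteins, with a run of pyrimidines at the 5′ end. Malat1 and Neat1 have no snoRNAs and stay in the nucleus, Malat1 in nuclear speckles and Neat1 as the scaffold of paraspeckles. Gas5 is named for its build-up in growth-arrested cells and is known to slow the growth of T cells.

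Each sample held between 37758725 and 43718867 counts over all genes. All 11 T cell markers were detected, with a summed level of 3134 to 3316 CPM (counts scaled to the TMM-normalised library size) in TCR alone and 3314 to 3535 CPM in TCR+DMGV. Markers of B cells summed to 8.38 to 11.3 CPM and 8.67 to 9.92 CPM, and those of monocytes or macrophages to 8.67 to 11.6 CPM and 8.88 to 10.5 CPM, with Cd14 at 0 in every sample. Markers of dendritic cells, of which Siglech was at 0, summed to 7.23 to 9.74 CPM and 7.87 to 9.80 CPM. Markers of NK cells summed to 54.3 to 64.4 CPM and 61.6 to 74.4 CPM, nearly all of it Eomes, which activated T cells also make. All 4 NK markers were higher in TCR+DMGV (median log2 fold change 0.75), as were 50.6% of all genes. Of the 4, 1 had an unadjusted p under 0.05 in edgeR, against 3.19% of all genes, and 0 were called. Erythroid markers (3.7205 to 4.93 CPM and 1.75 to 3.7157 CPM) and platelet markers (0.843 to 1.11 CPM and 1.19 to 1.31 CPM) were the only marker sums that did not overlap between the groups. Their part in the results was not tested. In these bulk samples, fewer cells that make an RNA and less of that RNA per cell cannot be told apart. The replicates also differed in a trend of expression with the GC content of the transcripts. The correlation, across genes, of a sample's deviation with GC content ran from -0.46 in TCR alone replicate 2 to 0.57 in TCR alone replicate 3.

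None of the long noncoding RNAs passed the gene-level test. All 10 passed the filter for low counts, and edgeR's quasi-likelihood test over 14786 genes called 0 of them at an adjusted p of 0.05, where it called 0.0135% of all genes. DESeq2 also called 0 of 10, against 0.072% of all genes. At an unadjusted p under 0.05, both edgeR and DESeq2 named 1 gene, Neat1, while edgeR put 3.19% of all genes there (1.63% of all genes with a higher level in TCR+DMGV). The log2 fold change was above 0 for 8 of the 10 and for 50.6% of all genes. Its median was 0.08 over the 10 and 0.00243 over all genes. Neat1 was also the only gene of the 10 whose CPM did not overlap between the groups, which held for 8.86% of all genes in either direction and for 4.92% with TCR+DMGV higher.

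**Figure D1:**
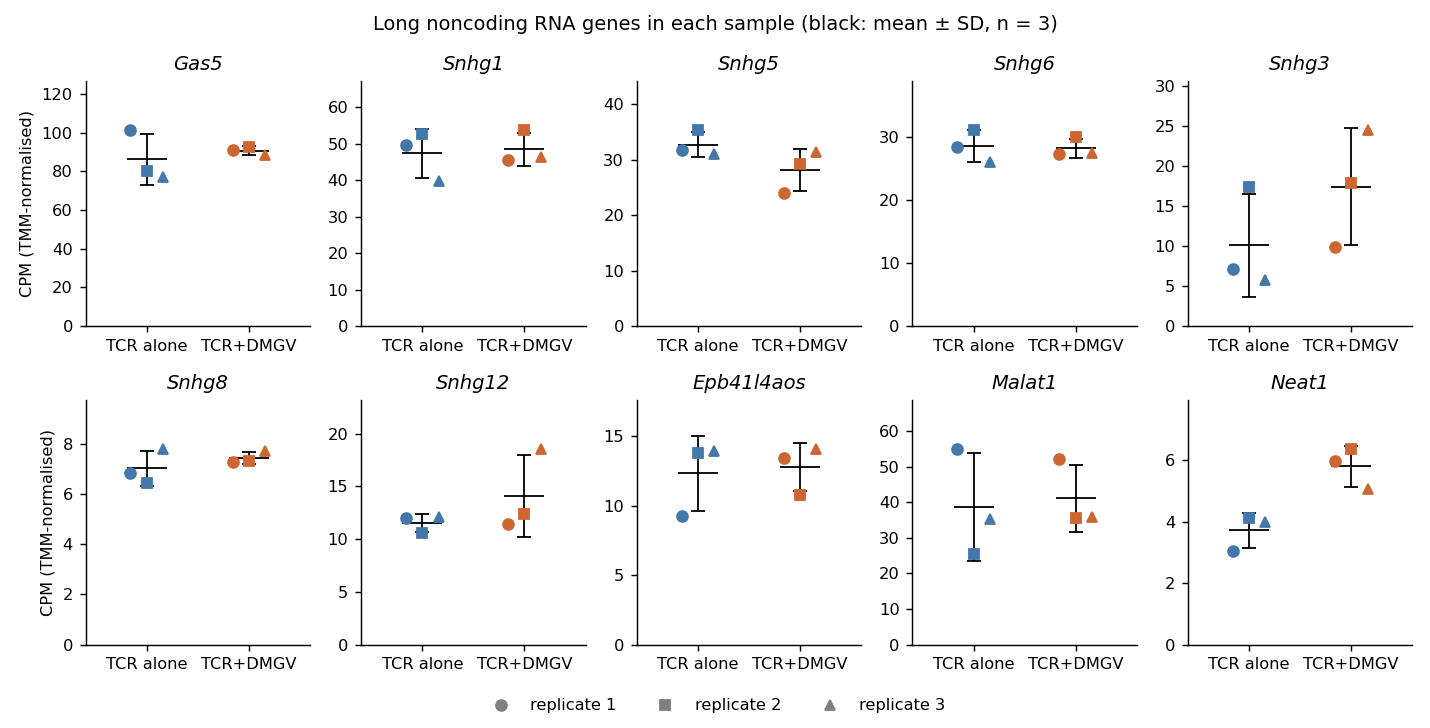
TMM-normalised CPM of each long noncoding RNA gene (vertical axes, each from 0) in the 3 samples activated through the TCR alone (blue) and the 3 with DMGV (orange). Symbols mark the replicate number and black bars the mean ± SD. The groups overlap for every gene except Neat1, where the TCR+DMGV samples lie at 5.07 to 6.39 CPM and the TCR alone samples at 3.05 to 4.12 CPM.

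Per unit of length, the genes covered a wide range. In FPKM, the fragments scaled to gene length and depth, Epb41l4aos had the highest mean over the 6 samples (25.9 ± 4.26, SD), followed by Snhg6 (21.9 ± 1.17), Gas5 (20.8 ± 2.14), Snhg5 (15.6 ± 1.79), Snhg1 (14.3 ± 1.37) and Snhg3 (12.2 ± 6.36). Snhg8 (7.49 ± 0.61), Snhg12 (6.97 ± 1.498), Malat1 (5.09 ± 1.51) and Neat1 (0.202 ± 0.0535) were lower. The libraries were made with an mRNA kit. How evenly it captured these RNAs was not tested, so the order describes these libraries and not levels in the cells. Most neighbours in this order did not differ beyond their spread. Gas5 was above Snhg5, and Malat1 above Neat1, in all 6 samples, and every other neighbouring pair changed places in at least 1 sample. An order per unit of length depends on the length used. CPM per kb of all annotated exons kept it, except that Malat1 (5.71 CPM per kb) came above Snhg12 (5.35). Deposited FPKM stood in nearly the same proportion to this measure in the other genes, such as Gas5 (23.5 CPM per kb) and Snhg6 (24.7). The kept order is therefore no check with another length. The length of all annotated exons includes retained introns and is 3760 bases for Gas5, 2969 for Snhg1 and 430 for Epb41l4aos. Many Gas5 counts lie on shorter transcripts, such as Gas5-224 of 502 bases, and an order by those lengths was not computed.

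The 5′ ends of the host genes are shown because they carry a feature that did not enter the choice of genes. RefSeq (GRCm38.p6) gave a start site for 7 of the 10 genes, and each sequence below runs from 20 bases before it to 20 bases from it onward. Capitals mark the longest run of C and T, of at least 5 bases, that begins within 10 bases of the start site.
Gas5, chr1:161035146-161035185, plus strand: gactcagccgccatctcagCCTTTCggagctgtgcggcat
Snhg1, chr19:8723467-8723506, plus strand: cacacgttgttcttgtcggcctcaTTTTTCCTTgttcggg
Snhg12, chr4:132308658-132308697, plus strand: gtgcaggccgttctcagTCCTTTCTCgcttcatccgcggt
Snhg8, chr3:123508317-123508356, minus strand: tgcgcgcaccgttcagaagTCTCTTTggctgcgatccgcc
Snhg5, chr9:88522878-88522917, minus strand: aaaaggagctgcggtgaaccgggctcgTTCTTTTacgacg
Snhg3, chr4:132353667-132353706, minus strand: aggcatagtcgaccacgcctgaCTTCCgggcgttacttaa
Malat1, chr19:5802653-5802692, minus strand: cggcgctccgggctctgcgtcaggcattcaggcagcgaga
All 6 host genes with a start site held such a run and Malat1 did not. A run of this kind is common, in 37.98% of 32851 promoter windows of the mouse genome, but runs as long as those of Snhg1 and Snhg12, at 9 bases, were found in 5.96% of them. The runs of Snhg5 and Snhg8 have 7 bases (14.44% of windows have as many) and that of Gas5 has 6 (23.08%). That of Snhg3 has 5, the shortest counted (37.98%). The runs begin between 3 bases before the start site (Snhg12) and 7 bases after it (Snhg5). A further, upstream start site of Gas5 held none. These are matches of letters and not measured start sites.

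Inside the host genes, 30 annotated snoRNA genes lie on the same strand, 10 of them in Gas5, 8 in Snhg1, 5 in Snhg12, 2 each in Snhg3 and Snhg5, and 1 each in Snhg6, Snhg8 and Epb41l4aos. Snord80 in Gas5 and Snora16a in Snhg12 are each annotated as 2 overlapping genes, and all counts out of 30 include both. A C/D snoRNA, which guides 2′-O-methylation, carries a box C near its 5′ end and a box D near its 3′ end, and an H/ACA snoRNA, which guides pseudouridylation, ends in ACA and 3 more bases. Searching the given strand only, TGATGA within 15 bases of the 5′ end together with CTGA within 15 bases of the 3′ end was found in 17 of the 30 (20.4% of 1507 annotated mouse snoRNA genes), and the ACA in 7 (18%). The motifs may overlap. Those below show both box types and are among the snoRNA genes that passed the filter for low counts. Their sequences were read from GRCm38 at the GENCODE M21 coordinates, and capitals mark the boxes.
Gm22357, in Gas5, chr1:161036057-161036139, plus strand: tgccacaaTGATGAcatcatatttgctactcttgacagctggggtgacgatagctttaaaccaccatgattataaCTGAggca
Snord80, in Gas5, chr1:161037604-161037680, plus strand: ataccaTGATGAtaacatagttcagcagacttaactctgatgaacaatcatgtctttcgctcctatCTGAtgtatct
Snord87, in Snhg6, chr1:9942463-9942549, minus strand: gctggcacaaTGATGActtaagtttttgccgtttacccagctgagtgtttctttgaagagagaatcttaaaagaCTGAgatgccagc
Snora61, in Snhg12, chr4:132310240-132310369, plus strand: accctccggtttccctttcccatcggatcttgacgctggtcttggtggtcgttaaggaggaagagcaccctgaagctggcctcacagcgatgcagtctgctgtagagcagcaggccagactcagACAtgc
The snoRNA genes themselves had few counts. The libraries were made with an mRNA kit, and 15 of the 30 had 1 count or fewer in every sample. Only 10 passed the filter, and edgeR called 0 of them, with a lowest unadjusted p of 0.0664 (Snora73b of Snhg3). Gm22357 had 176, 130 and 82 counts under TCR alone, against 124, 139 and 166 under TCR+DMGV. Snora61 had 9, 1 and 21 counts under TCR alone, against 28, 19 and 28 under TCR+DMGV, with 2 of the 3 TCR+DMGV samples above all TCR alone samples and the groups overlapping.

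Gas5 (chr1:161034422-161038539, plus strand) was the most abundant of the host genes by CPM. It was at 101.3, 79.9 and 77.1 CPM under TCR alone, against 91.1, 92.5 and 88.3 CPM under TCR+DMGV. The TCR+DMGV samples lay close together and within the range of the TCR alone samples, whose first replicate was highest. In edgeR the log2 fold change was 0.07 (95% interval -0.20 to 0.35), and the exact permutation p was 0.6. The gene overlaps Zbtb37, on the other strand, by 428 bases, and Zbtb37 was not called either (20.8 ± 5.66 CPM under TCR alone, against 18.7 ± 0.944 CPM under TCR+DMGV). Of its 25 transcripts, Gas5-224, with 12 exons, led in all 6 samples with 23.3 to 28.9% of the counts. Gas5-210 held 17.5 to 24.3%, and the retained-intron transcripts Gas5-218 and Gas5-223 held 12.2 to 15.9% and 6.5 to 12.9%. The division of Gas5 over its transcripts was among the steadier ones, since the share of its leading transcript moved by 5.53 percentage points over the 6 samples, where the median gene moved by 17.95.

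Snhg1 (chr19:8723475-8726443, plus strand), a host of C/D snoRNAs, was at 49.7, 52.7 and 39.9 CPM under TCR alone, against 45.5, 53.8 and 46.3 CPM under TCR+DMGV. The groups overlapped and the log2 fold change was 0.03 (95% interval -0.28 to 0.34, exact permutation p = 0.9). The division of these counts over transcripts differed widely from sample to sample. Snhg1-211 had 862, 342 and 935 counts under TCR alone, against 918, 978 and 510 under TCR+DMGV. Snhg1-207 had 87, 844 and 104 counts under TCR alone, against 304, 222 and 600 under TCR+DMGV. Snhg1-207 was thus the leading transcript in TCR alone replicate 2 and TCR+DMGV replicate 3, 1 sample of each group, and Snhg1-211 in the other 4. The transcripts share 8 exons and differ at the 5′ end, of which the first 40 bases are given, with the second exon in capitals where they reach it.
Snhg1-211: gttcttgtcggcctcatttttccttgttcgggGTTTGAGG
Snhg1-207: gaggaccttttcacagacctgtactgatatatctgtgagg
Snhg1-211 starts within the 5′ window shown for Snhg1, with a first exon of 32 bases. The annotated start of Snhg1-207 lies 530 bases downstream and 12 bases inside the snoRNA gene Gm25855 (chr19:8723993-8724064), 60 bases of which it holds. That snoRNA, with its boxes in capitals, is given for comparison.
Gm25855: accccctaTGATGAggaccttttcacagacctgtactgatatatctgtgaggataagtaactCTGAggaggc
Gm25855 itself had 1 count in every sample. The usage of the Snhg1 transcripts did not pass edgeR's test between the groups (adjusted p = 1).

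Snhg5 (chr9:88521050-88522929, minus strand), which hosts Snord50a and Snord50b, was at 31.7, 35.3 and 31.1 CPM under TCR alone, against 24.0, 29.2 and 31.3 CPM under TCR+DMGV. TCR+DMGV replicates 1 and 2 were below every TCR alone sample and replicate 3 was not. On deposited FPKM the groups did not overlap (16.4 to 17.8 in TCR alone, 12.6 to 15.7 in TCR+DMGV). The share of all genes without overlap in FPKM was not computed. It had the lowest log2 fold change of the 10, -0.22 (95% interval -0.51 to 0.08, exact permutation p = 0.2). The retained-intron transcript Snhg5-206 led in 5 samples with 39.3 to 54.5% of the counts, and the spliced Snhg5-202 led in TCR alone replicate 3 with 54.6%. Snhg6 (chr1:9941959-9944118, minus strand), host of Snord87, was the steadiest of the genes, at 28.3, 31.05 and 25.995 CPM under TCR alone, against 27.2, 29.9 and 27.3 CPM under TCR+DMGV. Its log2 fold change was -0.02 (95% interval -0.26 to 0.23), and Snhg6-203 led in every sample with 63.4 to 74.0% of the counts. Among all genes tested, 14.2% had a smaller SD of log2 CPM than Snhg6.

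Snhg3 (chr4:132348014-132353686, minus strand), which hosts the H/ACA snoRNAs Snora73a and Snora73b, varied most. It was at 7.11, 17.4 and 5.70 CPM under TCR alone, against 9.93, 17.9 and 24.5 CPM under TCR+DMGV, a 4.29-fold range. TCR alone replicate 2 was as high as TCR+DMGV replicate 2, so the groups overlapped. Its log2 fold change, 0.79 (95% interval -0.34 to 1.92, exact permutation p = 0.2), was the highest of the 10 and the least certain. Among all genes tested, 92.2% had a smaller SD of log2 CPM. The differences between samples lay mostly in 1 transcript, Snhg3-204, with 134, 586 and 78 counts under TCR alone, against 208, 651 and 859 under TCR+DMGV, while the other counted transcripts stayed at or below 87 counts. The gene overlaps Rcc1, which encodes a regulator of chromosome condensation, by 5592 bases on the same strand, and the antisense Gm17300 by 1611 bases, and reads there cannot be assigned with certainty. Rcc1 was at 93.7, 218 and 223 CPM under TCR alone, against 217, 226 and 219 CPM under TCR+DMGV. It was low only in TCR alone replicate 1, whereas Snhg3 was lowest in TCR alone replicate 3. Snora73b had 79, 99 and 129 counts under TCR alone, against 89, 71 and 66 under TCR+DMGV, and Snora73a had 15, 22 and 17, and 37, 13 and 32.

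Snhg8 (chr3:123507552-123508404, minus strand), host of Snora24, was at 6.44 to 7.80 CPM under TCR alone, against 7.26 to 7.70 CPM under TCR+DMGV, with a log2 fold change of 0.08 (95% interval -0.25 to 0.40). Each of its 3 transcripts led in some samples. Snhg8-203 had 56, 57 and 40 counts under TCR alone, against 51, 114 and 189 under TCR+DMGV, and the single-exon Snhg8-202, the form that holds the whole of Snora24, had 84, 104 and 107 counts and 87, 104 and 72. Neither the transcripts nor their usage passed a test (adjusted p = 0.903 for usage in edgeR).

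Snhg12 (chr4:132308623-132311024, plus strand), which holds Snora16a, Snora44, Snora61 and Snord99, was at 11.98, 10.6 and 12.1 CPM under TCR alone, against 11.4, 12.4 and 18.6 CPM under TCR+DMGV. Its log2 fold change was 0.29 (95% interval -0.18 to 0.76, exact permutation p = 0.4) and rested largely on TCR+DMGV replicate 3, without which it was 0.04. The division over transcripts differed more from sample to sample than the total. Neither the usage of the Snhg12 transcripts (unadjusted p = 0.172 in edgeR) nor Snhg12-206 alone (unadjusted p = 0.228 in edgeR) passed a test. Snhg12-206, with 5 exons, had 207, 199 and 192 counts under TCR alone, against 164, 148 and 21 under TCR+DMGV. Its share of the gene's counts was 45.5, 46.1 and 38.2% in TCR alone and 32.3, 27.8 and 2.8% in TCR+DMGV, without overlap. Among all transcripts that reached 10% of their gene's counts in some sample, 8.16% had a share without overlap. Snhg12-205 had 18, 16 and 2 counts and 9, 38 and 185 counts, and Snhg12-204 had 42, 1 and 1 counts and 77, 3 and 139 counts. The share of Snhg12-206 was thus lower in all 3 TCR+DMGV samples, whereas Snhg12-205 was high only in TCR+DMGV replicate 3 and Snhg12-204 in replicates 1 and 3.

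Transcripts that hold a whole snoRNA were summed for each host gene, a measure chosen after the values had been seen. In Snhg12 they took 43.7, 48.8 and 58.0% of the counts under TCR alone, against 64.3, 59.7 and 89.8% under TCR+DMGV. The groups did not overlap in Snhg12 (50.2 ± 7.21% and 71.3 ± 16.2%, SD, n = 3 each). Of the Snhg12 transcripts, only Snhg12-206 and Snhg12-202 hold no whole snoRNA, so this sum is what they leave of the counts. The share of Snhg12-202 overlapped between the groups (10.8, 5.1 and 3.8% under TCR alone, against 3.4, 12.6 and 7.3% under TCR+DMGV). The lack of overlap is therefore not a result separate from the lower share of Snhg12-206. No test is given for a measure chosen after its values had been seen. The share of all genes without overlap in it was not computed. In Gas5 the share was 46.5 ± 4.601% in TCR alone and 42.2 ± 2.41% in TCR+DMGV, in Snhg1 38.7 ± 4.29% and 37.5 ± 4.74%, in Snhg5 10.6 ± 2.67% and 9.86 ± 1.28%, and in Snhg8 35.0 ± 3.92% and 27.9 ± 4.83%. The groups overlapped in each of these. No transcript of Snhg3, Snhg6 or Epb41l4aos holds a whole snoRNA.

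**Figure D2:**
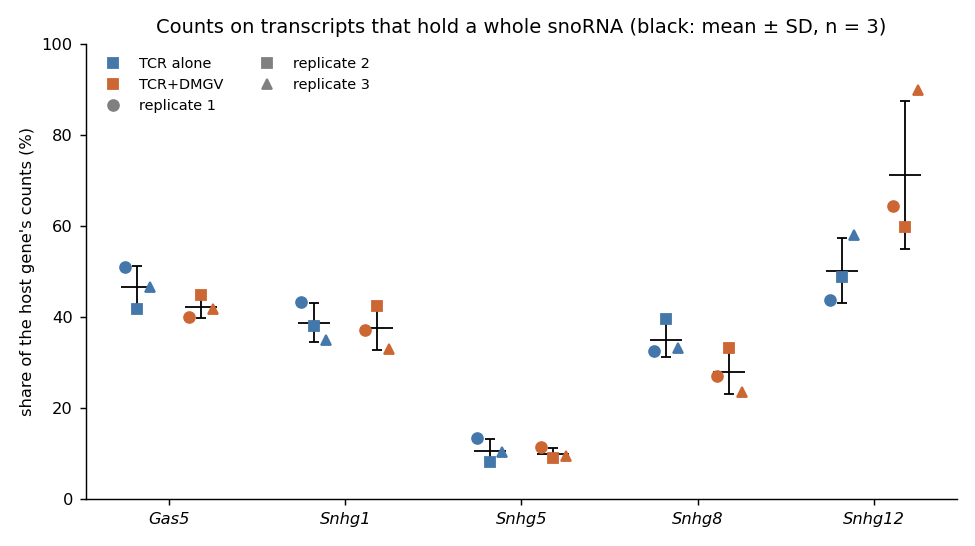
Share of each host gene's counts (vertical axis, percent) on transcripts that contain a whole snoRNA, for the 5 host genes that have such transcripts. Points are samples, symbols replicate numbers and black bars mean ± SD (n = 3). The groups overlap in 4 of the 5, and in Snhg12 lie at 43.7 to 58.0% in TCR alone and 59.7 to 89.8% in TCR+DMGV, on a measure chosen after the values had been seen. The Snhg12 values are what Snhg12-206 and Snhg12-202 leave of the counts, and are not a result separate from the lower share of Snhg12-206.

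**Figure D3:**
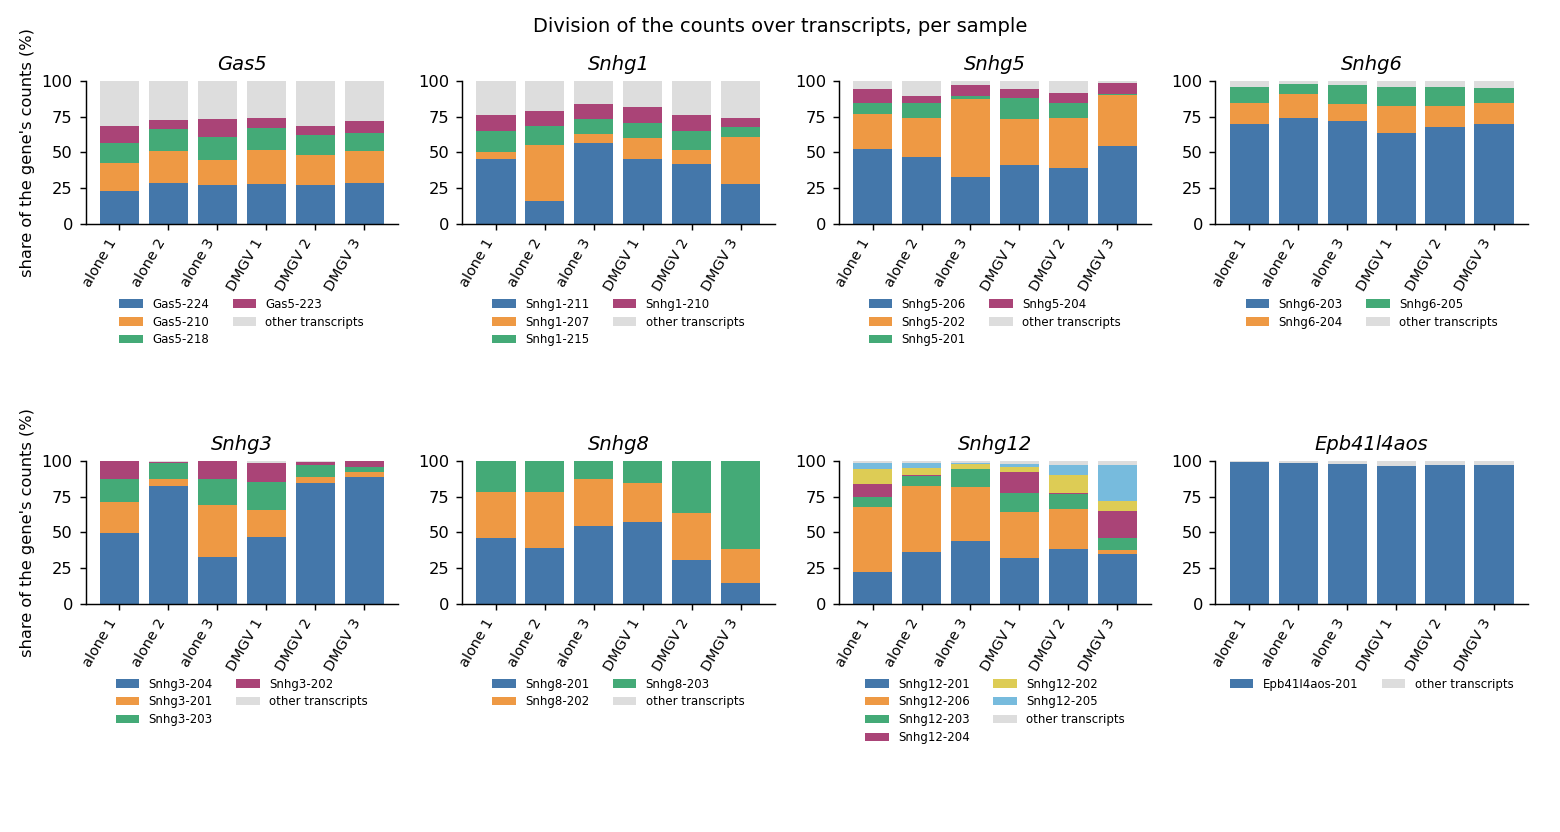
Share of each host gene's counts (vertical axes, percent) taken by every transcript that reaches 10% in some sample, per sample, with the rest in grey. Gas5, Snhg6 and Epb41l4aos divide their counts alike in all 6 samples, whereas in Snhg1, Snhg3, Snhg5, Snhg8 and Snhg12 the leading transcript changes from sample to sample or its share moves by over 20 percentage points.

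Malat1 (chr19:5795690-5802672, minus strand) was at 55.1, 25.4 and 35.4 CPM under TCR alone, against 52.0, 35.5 and 35.8 CPM under TCR+DMGV. Replicate 1 was the highest sample in each group, TCR alone replicate 2 was the lowest, and the groups overlapped. Malat1 had a log2 fold change of 0.09 (95% interval -0.59 to 0.77, exact permutation p = 0.8). The single-exon Malat1-201 of 6983 bases took 99.1 to 100% of the counts. The spliced Malat1-203, of 485 bases, was listed at 0 in all 3 TCR alone samples and had 9, 13 and 7 counts in TCR+DMGV.

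Neat1 (chr19:5824708-5845478, minus strand) was at 3.05, 4.12 and 3.99 CPM under TCR alone, against 5.98, 6.39 and 5.07 CPM under TCR+DMGV. Each TCR+DMGV sample was above each TCR alone sample. Mean levels were 3.72 ± 0.579 and 5.81 ± 0.672 CPM (± SD, 3 samples each). On the log2 scale the difference was 0.64 ± 0.19 (SE), with an unadjusted p of 0.0105 and an adjusted p of 0.999 in edgeR and an exact permutation p of 0.1. Among all genes tested, 73.7% had a smaller SD of log2 CPM over the 6 samples. At 0.131 to 0.267 FPKM, it was low in these libraries from an mRNA kit, and 9.34% of the genes tested had a lower mean FPKM.

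The annotated forms of Neat1 differed in which samples they were counted in. Neat1-201, the long form of 20771 bases that builds paraspeckles, had 109, 168 and 165 counts under TCR alone, against 182, 238 and 121 under TCR+DMGV. Neat1-202, a short form of 3004 bases with 2 exons, was listed at 0 in all 3 TCR alone samples and had 78, 20 and 74 counts in TCR+DMGV. Neat1-203, with 4 exons, had 7, 0 and 0 counts and 6, 17 and 6 counts. The long form overlapped between the groups and the short form did not. The share of Neat1-201 was 98.0 ± 3.48% in TCR alone and 71.7 ± 13.5% in TCR+DMGV (SD, n = 3 each, exact permutation p = 0.1). The difference was -26.3 percentage points on counts and -58.1 on shares of transcript FPKM, in which short forms weigh more. How evenly the mRNA kit captured the forms was not tested, so these shares describe the libraries. The short form is spliced near the 5′ end of the gene, across an intron of 166 bases, and its junction is given with the second exon in capitals, beside that of Malat1-203, whose intron has 271 bases.
Neat1-202: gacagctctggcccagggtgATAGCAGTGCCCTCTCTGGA
Malat1-203: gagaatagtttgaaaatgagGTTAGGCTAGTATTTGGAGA
Every base of these 2 short forms also lies in the long ones, and only a read across a junction sets a short form apart. Counts of such reads were not available here. The authors' division of reads between the forms is thus an estimate, and with 0 counts in a whole group no fold is given. The misc_RNA gene Gm27505 (chr19:5844638-5844747), which lies within the second exon of Neat1-202 on the same strand and was picked out after its values were seen, had 1, 0 and 1 counts under TCR alone, against 12, 9 and 24 under TCR+DMGV. It did not pass the filter for low counts. The other misc_RNA genes on that strand did not share this pattern. Gm27533, in the same exon, had 2, 2 and 2 counts under TCR alone, against 1, 2 and 1 under TCR+DMGV, and Gm28006, mostly in the first exon, had 1 count in every sample. Counts this low say little, since several of the snoRNA genes above are also listed at exactly 1 in every sample. Gm37376, which overlaps Malat1 by 453 bases on the other strand, had 180, 40 and 54 counts under TCR alone, against 96, 80 and 68 under TCR+DMGV. Frmd8os, 144 bases from Neat1 on the other strand, had 28, 54 and 9 counts under TCR alone, against 46, 60 and 41 under TCR+DMGV.

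**Figure D4:**
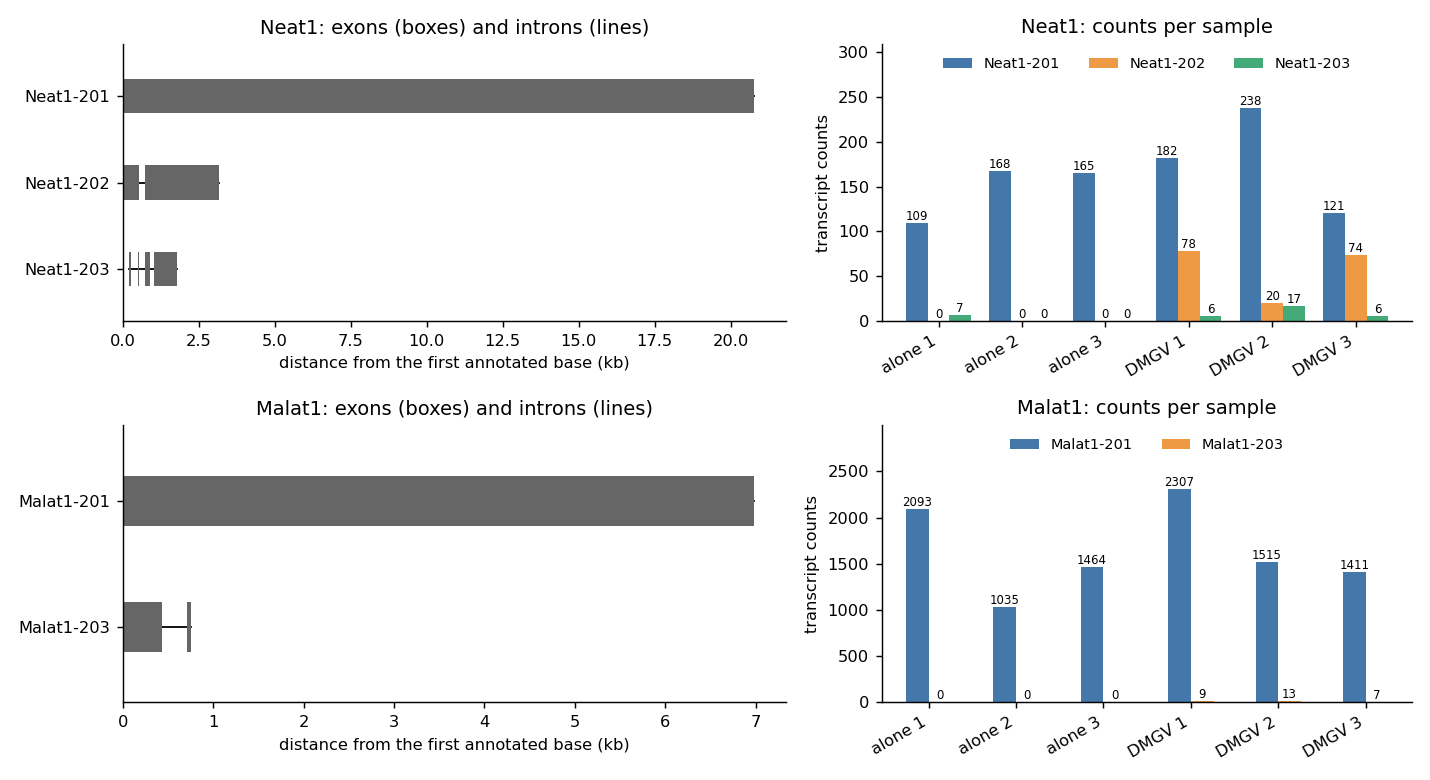
Left, annotated transcripts of Neat1 and Malat1 with a count (boxes are exons, lines introns, horizontal axis in kb from the first base). Right, counts of each transcript per sample. Neat1-202 and Malat1-203 stand at 0 in the 3 TCR alone samples and at 20 to 78 and 7 to 13 counts in the TCR+DMGV samples.

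Transcript usage, the division of a gene's counts over its transcripts, was tested for all 7788 genes with at least 2 transcripts past the filter. Of the 10 long noncoding RNAs, edgeR called Neat1 (adjusted p = 0.00545), where it called 1.58% of all genes and put 7.47% at an unadjusted p under 0.05. Only 2 Neat1 transcripts were tested, and one of them, Neat1-202, was at 0 in all 3 TCR alone samples and passed the filter only through TCR+DMGV, so the call compares counts assigned to that form with 0. The other method, limma, called 0 of the 10 and 0.565% of all genes, and gave Neat1 an adjusted p of 0.267, the only one of them with an unadjusted p under 0.05. In simulated data both methods also called genes that had not been changed, edgeR more often. Malat1 was not tested, since only 1 of its transcripts passed the filter. The leading transcript's share did not overlap between the groups in 3 of the 10, Malat1, Neat1 and Epb41l4aos, as in 8.54% of 10041 genes. Each had an exact permutation p of 0.1. In Malat1 and Neat1 the leading share is lower where counts were assigned to Malat1-203 and Neat1-202, both at 0 in every TCR alone sample. It is therefore not a result separate from those forms. The means differed by -0.578 percentage points in Malat1 and -1.65 in Epb41l4aos on counts, and by -7.01 and -2.25 on transcript FPKM.

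Over single transcripts, edgeR called 0 of the 65 tested and 0 (0%) of all 38401 transcripts. In simulated data this fit recovered no changed transcript, so that count says nothing of these transcripts. At an unadjusted p under 0.05 it placed 1 of the 65, Neat1-202 (adjusted p = 0.584), and 3.22% of all transcripts. DESeq2 called 2 transcripts, Neat1-202 (adjusted p = 6.14e-05) and Malat1-203 (adjusted p = 0.0377), where it called 0.788% of all transcripts. Both were listed at 0 in every TCR alone sample and entered the test only through TCR+DMGV, so these p-values compare counts assigned by an estimate with 0 and are not support for a difference in either form. Among the 32 transcripts that reached 10% of their gene's counts in some sample, the share did not overlap between groups for 5 (Malat1-201, Neat1-201, Neat1-202, Epb41l4aos-201 and Snhg12-206), and for 8.16% of all such transcripts. Malat1-201, Neat1-201 and Neat1-202 are in this count through the counts assigned against 0, so the 5 are not separate results.

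**Figure D5:**
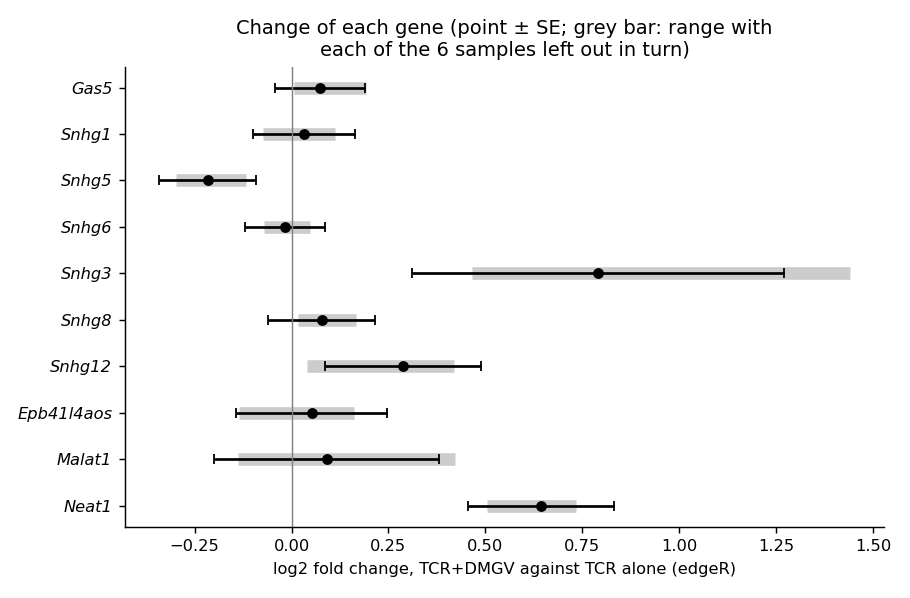
Log2 fold change of each gene between TCR+DMGV and TCR alone (points, edgeR) with its SE (bars), and the range of the value when each sample in turn is left out (grey). Snhg3 has the widest interval. Neat1 stays between 0.50 and 0.73, and the ranges of Snhg1, Snhg6, Malat1 and Epb41l4aos include 0.

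Epb41l4aos (chr18:33794892-33795986, plus strand), which holds the H/ACA snoRNA gene Gm23639, was at 9.24, 13.8 and 14.0 CPM under TCR alone, against 13.5, 10.8 and 14.1 CPM under TCR+DMGV. The low sample was TCR alone replicate 1, and the groups overlapped. A log2 fold change of 0.05 was found (95% interval -0.41 to 0.51, exact permutation p = 0.8). Epb41l4aos-201 took 96.2 to 99.1% of its counts.

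The pathways that these RNAs belong to also held no gene past the threshold. Of 13 other snoRNA host genes, 10 were found in the files and 6 were tested, 3 higher and 3 lower in TCR+DMGV (median log2 fold change -0.02, but 0.14 without TCR alone replicate 1), and the one of smallest p, Zfas1, was at 35.6 ± 5.23 and 39.7 ± 5.46 CPM. Of 20 proteins that form or assemble snoRNA particles, 16 were higher (median 0.08, but 0.017 without TCR alone replicate 1 and 0.04 without TCR+DMGV replicate 3), among them Nop10 of the H/ACA particle (110.5 ± 10.99 and 132 ± 17.98 CPM) and the methyltransferase Fbl (402 ± 30.6 and 437 ± 13.5 CPM). Of 18 NMD factors, 6 were higher (median -0.02), and Magohb, a core protein of the exon junction complex, was the 1 gene with an unadjusted p under 0.05 (15.05 ± 2.07 and 19.4 ± 1.71 CPM, adjusted p = 0.999 in edgeR). Of 84 cytosolic ribosomal protein genes, whose RNAs also begin with a pyrimidine run, 82 were higher (median 0.15, but 0.04 without TCR alone replicate 1 and 0.22 without TCR alone replicate 3). Of the 84, 4 had an unadjusted p under 0.05, against 3.19% of all genes, led by Rpl21 (959 ± 73.8 and 1148 ± 73.4 CPM), and edgeR called 0. The sample lowest in this list was TCR alone replicate 1. Its median deviation from the 6-sample mean was -0.25 on the log2 scale over the ribosomal protein genes and 0.00299 over Gas5 and the 6 Snhg genes. The host genes did not move together in that sample. Gas5 was at its highest there (101.3 CPM), and Epb41l4aos, which is not in that median, at its lowest (9.24 CPM).

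Of 18 paraspeckle proteins, which assemble on Neat1, 13 were higher (median 0.04), none with an unadjusted p under 0.05. The smallest p was that of Sfpq (719 ± 52.3 and 794 ± 37.2 CPM). Of 21 proteins of nuclear speckles and of the 3′ end processing of Malat1 and Neat1, 12 were higher (median 0.0058, and -0.02 without TCR alone replicate 1), with the smallest p for Pop5, a subunit of RNase P (59.7 ± 7.56 and 50.6 ± 2.48 CPM). The genes next to Snhg1 (Slc3a2), Snhg8 (Prss12) and Snhg12 (Trnau1ap), each on the other strand, were not called either. In each of the lists, edgeR called 0 genes at an adjusted p of 0.05 against 0.0135% of all genes.

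For the 3 genes that varied most, the genes with the most similar pattern over the 6 samples were found by the root mean square difference of centred log2 CPM. Those of Neat1 were Cxcr4, a chemokine receptor (0.07), and Gm11201 (0.10), where the median over all genes was 0.41. Cxcr4 was at 2.50, 2.99 and 2.92 CPM under TCR alone, against 4.90, 4.78 and 4.11 CPM under TCR+DMGV. Those of Malat1 were Efnb2 (0.06) and Plag1 (0.09), and those of Snhg3 were Cers3 and Gm15694 (both 0.26). Over 6 samples and 14786 genes, such likeness is a description only.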

How the data were processed

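RNA of 6 samples, 3 per group by their labels, was sequenced from an mRNA library kit. Reads were cleaned with SOAPnuke and aligned with HISAT2 2.0.4 by the authors, who quantified them with StringTie. Counts as deposited are unnormalised whole numbers for genes and transcripts, and how they were taken from StringTie is not given in the sources used here, nor is the use of strand. Low counts pile up at multiples of 4 (678 genes at 4, against 334 at 3 and 428 at 5, in TCR alone replicate 1), so no counting intervals are given. FPKM as deposited by the authors is scaled to length and depth. The submitters' processing notes name mm9, but the files carry versioned Ensembl identifiers, 99.72% of which matched GENCODE M21 (GRCm38) for genes, the source of symbols and coordinates.

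All genes, or all transcripts, were fitted with edgeR 4.0.16 (quasi-likelihood, TMM, filterByExpr, R 4.3.3), with Benjamini-Hochberg adjusted two-sided p at a threshold of 0.05. Usage was tested with edgeR's diffSpliceDGE, and shares and CPM with exact two-sided permutation tests, which cannot go below 0.1. Alternatives used DESeq2 1.42.0, limma 3.58.1, other normalisations, filters and units, GC correction, a replicate block and each sample left out. The fits were tested on simulated data. Named are the 10 genes, the snoRNA genes inside them, tested neighbours within 1000 bases, transcripts with at least 10% of a gene's counts, up to 3 genes of smallest p per list, and 2 genes of most similar pattern for the 3 most variable genes. Malat1-203 and Neat1-203, with smaller shares, and the untested neighbours Gm27505, Gm27533 and Gm28006 fall outside this rule and were named after their values were seen. Genes, lists and tests were chosen with earlier results of these data known.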

Additional observations from a re-analysis of the deposited data

How the results depend on the processing

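None of the 10 genes was called at the gene level under any of the 11 alternatives that keep all samples or with any 1 of the 6 samples left out. Over all genes, where 2 were called, DESeq2 called 14, and 1 was called with library size alone, with all genes with a count and with GC correction. limma on log2(FPKM + 1) or log2(FPKM + 0.1), the replicate block, and GC correction with the block called 0. Leaving out 1 sample gave 0 to 5 calls, 5 without TCR+DMGV replicate 1. The log2 fold change of Snhg6 was 0.0384 with GC correction and 0.0420 with GC correction and block. With 1 sample left out it ran from -0.0711 to 0.0486, that of Snhg1 from -0.0725 to 0.112, that of Malat1 from -0.139 to 0.420 and that of Epb41l4aos from -0.136 to 0.1604. Snhg12 was at 0.0392 without TCR+DMGV replicate 3, and Snhg3 ran from 0.465 to 1.44. The median over paraspeckle proteins ran from 0.0219 to 0.0643 and that over NMD factors from -0.0238 to -0.00402 with 1 sample left out. On log2(FPKM + 1) Neat1 had 0.104, its FPKM being far below 1.

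The usage call of Neat1 was lost with limma (0 of the 10 called, adjusted p = 0.267) and with the replicate block (0 called, adjusted p = 0.0832). It was kept with each sample left out (adjusted p from 0.00249 to 0.0385). With transcripts of at least 10 counts 2 were called, Neat1 (adjusted p = 0.0367) and Malat1 (adjusted p = 0.0283). All of these calls compare counts assigned to Neat1-202 or Malat1-203 with 0 in every TCR alone sample. Leaving out a sample or changing the filter does not alter this, so they are not support for a difference. DESeq2 called 2 transcripts. On deposited FPKM the groups did not overlap in 2 genes, Neat1 and Snhg5. With 1 sample left out, CPM did not overlap in 1 to 3 genes and the leading share in 3 to 5. The share of all genes without overlap was not computed for these settings, and groups with a sample left out separate more easily. These counts are therefore not results about the genes. The difference in the share of Snhg12-201 was -0.0899 points on FPKM and ran from -4.88 to 6.05 points with 1 sample left out, that of Gas5-224 from -0.381 to 2.38, that of Snhg1-211 from -12.7 to 7.67 and that of Snhg5-206 from -4.59 to 5.07.

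The replicate numbers were not taken to pair the samples, since the deviations of samples with the same number correlated across genes at -0.15, 0.12 and -0.15. Such correlations also carry the GC trend of each sample, so they cannot settle whether the numbers pair the samples. With 3 samples per group and no counting error for single transcripts, small differences were not detectable. The cause of these shifts was not tested.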
